A study of Sus scrofa with 13 samples.

Results

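The genotype by age interaction asks whether the difference in muscle transcripts between dystrophin-deficient and wild-type pigs was itself different in newborn and in growing animals. It was measured in biceps femoris, a hind limb muscle, of 13 German Landrace pigs, with 1 array per animal and all 13 arrays used. At 2 days after birth there were 4 knockouts, called DMD KO, and 3 wild-type animals (WT). At 3 months there were 3 of each genotype. DMD KO animals carried a DMD gene without exon 52, introduced into primary kidney cells with a modified bacterial artificial chromosome, and were produced by nuclear transfer from those cells. Their muscle was collected directly after they died, and that of WT animals after euthanasia at the same ages, so that genotype cannot be told apart from cloning or from the manner of death. The sources used here do not say whether the WT animals were clones. Animals at the 2 ages were different individuals, so a change with age is a difference between groups. The p-values measure the spread between these animals.

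Dystrophin links actin inside the muscle fibre to a complex of membrane proteins, which in turn binds the matrix outside. Fibres without it are damaged by contraction, and a cycle of fibre death, invasion by macrophages, regeneration and deposition of collagen follows. Muscle also changes strongly after birth in healthy animals, when fetal isoforms are replaced, fast fibres gain their calcium-buffering proteins and the building of matrix slows. A gene can therefore acquire an interaction because the knockout muscle changed with age, because wild-type muscle changed and the knockout muscle did not, or because the muscles moved apart in opposite directions.

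For each gene the interaction is given on the log2 scale as the DMD KO minus WT difference at 3 months minus the same difference at 2 days, with its standard error (SE). A positive value means that DMD KO stood higher against WT at 3 months than at 2 days. A gene was called at an adjusted p under 0.05, by limma over all probe sets with Benjamini-Hochberg adjustment. Among the genes named by rule, a call given without remark stayed in each of the 13 fits that leave out a single animal. Of 21893 probe sets, 1105 (5.05%) had a called interaction, 669 higher and 436 lower. Among the 10412 genes that could be named, 637 (6.12%) were called. Of these, 388 (3.73% of all named genes) were called higher and 249 (2.39%) lower. Counts of calls in a list are to be read against these shares, and a single call says little about its list.

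The arrays were close in their centres, with medians from 7.32 to 7.38 on the log2 scale. Precision is limited by how many arrays there are. WT replicate 3 at 2 days stood apart from the rest, with a mean correlation to the other arrays of 0.918 against 0.943 to 0.964. Without it, 1265 probe sets were called. The tissue label was checked with 10 markers of skeletal muscle, whose mean log2 level lay between 11.08 and 11.77 on every array. At 3 months these markers moved with genotype, at 11.38, 11.44 and 11.15 in DMD KO and 11.77, 11.71 and 11.75 in WT without overlap. The median difference over the 10 was 0.05 at 2 days and -0.36 at 3 months, and 2 were called lower in the interaction. The part of this shift in the results below was not tested. Where a level lies below the arrays' lower quartiles, 6.54 to 6.61, no detection call was used, and a fold from it may be too small. These are bulk samples, in which fewer cells of a type and less RNA per cell cannot be told apart.

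The genotype difference changed sign between the ages in most called genes. It had opposite signs at 2 days and 3 months in 527 of the 637, whether or not it was itself called at either age. In 324 genes DMD KO was below WT at 2 days and above it at 3 months, and in 203 the order was the other way. The genotype difference was called at 3 months and not at 2 days in 246 genes, 196 of them higher and 50 lower in DMD KO. It was called at 2 days and not at 3 months in 234 genes, 145 higher and 89 lower in DMD KO. Another 92 genes were called at both ages with opposite signs, 68 from lower to higher and 24 from higher to lower. A further 6 were called at both ages with the same sign, and 59 at neither age. Each of these comparisons uses the same arrays, so the classes describe the interaction and are no separate evidence for it. Choosing genes by the difference between the ages itself favours opposite signs, and their share over all named genes was not counted. Over all named genes, 11.4% had a called genotype difference at 2 days and 7.37% at 3 months. Calls with DMD KO above WT were the more frequent there too, 845 against 343 in newborns and 601 against 166 in older animals. The excess of such calls is thus not particular to the genes with a called interaction.

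**Figure D1:**
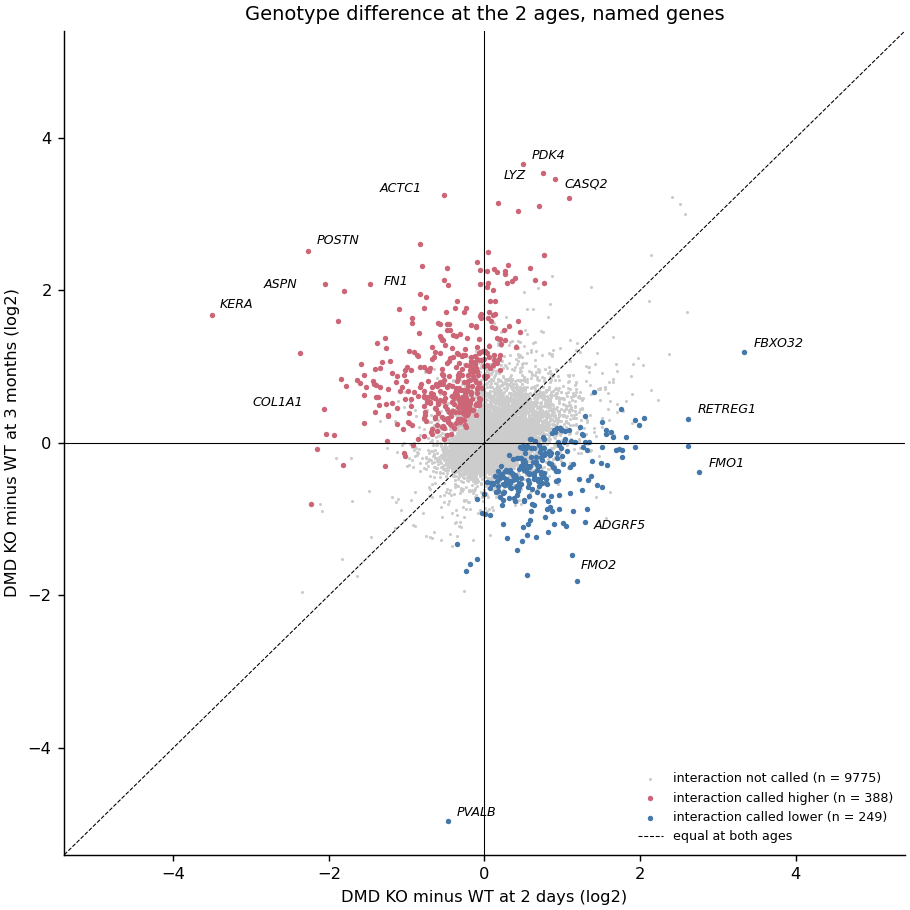
Each point is a named gene, placed by its DMD KO minus WT difference at 2 days (x axis, log2) and at 3 months (y axis, log2), with the 388 genes called higher in the interaction in red and the 249 called lower in blue. Most coloured points lie in the upper left and lower right, where the genotype difference has opposite signs at the ages, and PVALB stands alone at the bottom with a difference of -4.96 at 3 months.

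Seen along the age axis, the called genes more often had a called change with age in DMD KO than in WT. The change between 2 days and 3 months was called in DMD KO for 457 of the 637 genes and in WT for 157. It was called in DMD KO and not in WT for 398 genes, 255 rising and 143 falling. In WT and not in DMD KO it was called for 98. The muscles moved in opposite directions, both calls passed, in 54 genes. Over all named genes the age change was called for 9.83% in DMD KO and for 3.29% in WT, a gap in the same direction. The newborn DMD KO group had 4 animals and the WT group 3.

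Among the gene lists, chosen with earlier results of these data known, those of the extracellular matrix held the most calls and the most reversals. Of 738 genes in the lists 131 were called, and 506 of the 637 called genes lie in no list. Of 30 measured matricellular proteins and proteoglycans, 18 were called higher in the interaction and none lower. Their median interaction was 1.37, against -0.00 over all named genes. Over these 30 the median genotype difference was -0.49 at 2 days and 0.77 at 3 months. Among the 18, 11 were called lower in DMD KO at 2 days and higher at 3 months. Over the list, 9 members fell with age in WT and 19 rose in DMD KO, and none was called the other way in either genotype. Over all 10412 named genes a fall was called for 143 in WT and a rise for 593 in DMD KO.

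Periostin (POSTN), a matricellular protein of growing and scarring connective tissue, showed the pattern in full. Its log2 levels were 11.86, 11.76 and 12.14 in WT at 2 days and 8.80, 10.35, 9.95 and 9.52 in DMD KO. At 3 months they were 9.74, 8.31 and 9.85 in WT and 11.95, 11.69 and 11.82 in DMD KO. Every newborn knockout lay below every newborn WT animal, and every 3-month knockout lay above every WT animal of that age. The interaction was 4.79 ± 0.55 (SE, adjusted p = 0.000382), made of a 4.81-fold lower level at 2 days (adjusted p = 0.00332) and a 5.74-fold higher level at 3 months (adjusted p = 0.00244). At 3 months the knockout level thus lay where that of newborn WT muscle had been.

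Asporin (ASPN), a small leucine-rich proteoglycan, followed it. DMD KO animals read 8.76, 9.04, 8.59 and 8.69 at 2 days against 10.99, 11.03 and 10.44 in WT. At 3 months they read 11.40, 11.20 and 11.21 against 9.78, 8.18 and 9.60. The genotypes did not overlap at either age, and the interaction was 4.13 ± 0.45 (SE, adjusted p = 0.000264). Non-overlap at both ages was found for 8.92% of all named genes, at 2 days for 27.0% and at 3 months for 26.0%.

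Keratocan (KERA), a proteoglycan of cornea and tendon, had the largest positive interaction of all named genes, at 5.18 ± 0.82 (SE, adjusted p = 0.00309). Newborn knockouts were at 5.55, 6.69, 5.67 and 6.24 and newborn WT animals at 10.66, 9.82 and 8.12. In the older animals the levels were 10.23, 10.11 and 9.25 in DMD KO and 8.60, 7.10 and 8.85 in WT. The groups were apart at both ages, but only the difference at 2 days was called (-3.50, adjusted p = 0.00264), and that at 3 months was 1.68 (adjusted p = 0.137). Fibromodulin (FMOD), which binds collagen fibrils, was likewise called at 2 days only, with -1.84 at 2 days and 0.84 at 3 months (interaction 2.68 ± 0.47, adjusted p = 0.00578). Both belong to a list of 10 tendon and cartilage genes, of which they were the 2 calls. In newborn knockouts 4 of the 10 were called lower and none higher, against 343 lower and 845 higher of all 10412 named genes. The mean log2 level of that list was 7.17, 7.24, 7.14 and 7.20 in newborn knockouts and between 7.80 and 8.46 in newborn WT, and it was 8.14, 8.01 and 7.74 against 7.74, 7.60 and 7.98 at 3 months, with overlap. The share of tendon in the samples was not measured, and its part in the newborn matrix values was not tested.

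Fibronectin (FN1), the adhesive glycoprotein on which collagen is laid down, was measured with little scatter. Its levels were 8.79, 8.77, 8.72 and 8.73 in newborn knockouts and 9.61, 9.75 and 9.38 in newborn WT animals. At 3 months they were 10.84, 10.78 and 11.05 in DMD KO and 9.23, 8.75 and 8.81 in WT. The interaction was 2.78 ± 0.18 (SE, adjusted p = 9.91e-06), from 1.77-fold lower to 3.88-fold higher. Versican (VCAN), a large proteoglycan of provisional matrix, had an interaction of 3.55 (adjusted p = 0.000475), with differences of -1.47 and 2.09. Among the other called members, chosen here after their values were seen, lysyl oxidase (LOX), which crosslinks collagen, went from -0.93 to 1.63 and SPARC, a collagen-binding glycoprotein, from -1.01 to 0.81. An exception to the reversal was THBS1, thrombospondin 1, whose level was called above WT in newborn knockouts already (0.77) and further above at 3 months (2.10).

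Of 16 measured collagen genes 7 were called higher and none lower, with a median interaction of 0.93. COL3A1, the type III collagen chain, was at 8.15, 8.03, 7.83 and 7.90 in newborn knockouts and 9.24, 9.37 and 9.28 in newborn WT animals. It was at 9.71, 9.55 and 9.59 in DMD KO and 8.72, 8.48 and 8.45 in WT at 3 months. The interaction of 2.39 ± 0.15 (SE, adjusted p = 9e-06) joined a 2.50-fold lower with a 2.10-fold higher level, both called. COL1A2, COL12A1, COL14A1 and COL5A2 were also called at both ages with the signs reversed.

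The collagens were not alike in where their interaction came from. COL1A1, a chain of type I collagen, was 4.17-fold lower in newborn knockouts (adjusted p = 0.000179) and its difference at 3 months was 0.44 (adjusted p = 0.238). Its levels were 11.18, 11.49, 11.68 and 11.24 in newborn DMD KO against 13.44, 13.50 and 13.42 in WT, and 13.18, 13.38 and 13.11 against 12.65, 12.41 and 13.29 at 3 months. The older groups overlapped. COL6A3, a chain of the type VI collagen that surrounds fibres, had a newborn difference of -0.36 (adjusted p = 0.0536) and one of 1.40 in the older animals (adjusted p = 3e-05). A second probe set of COL1A1 had an interaction of 1.30 and the other COL6A3 probe sets had 0.69 and 1.33. All were called and smaller than the values of the probe sets used here.

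**Figure D2:**
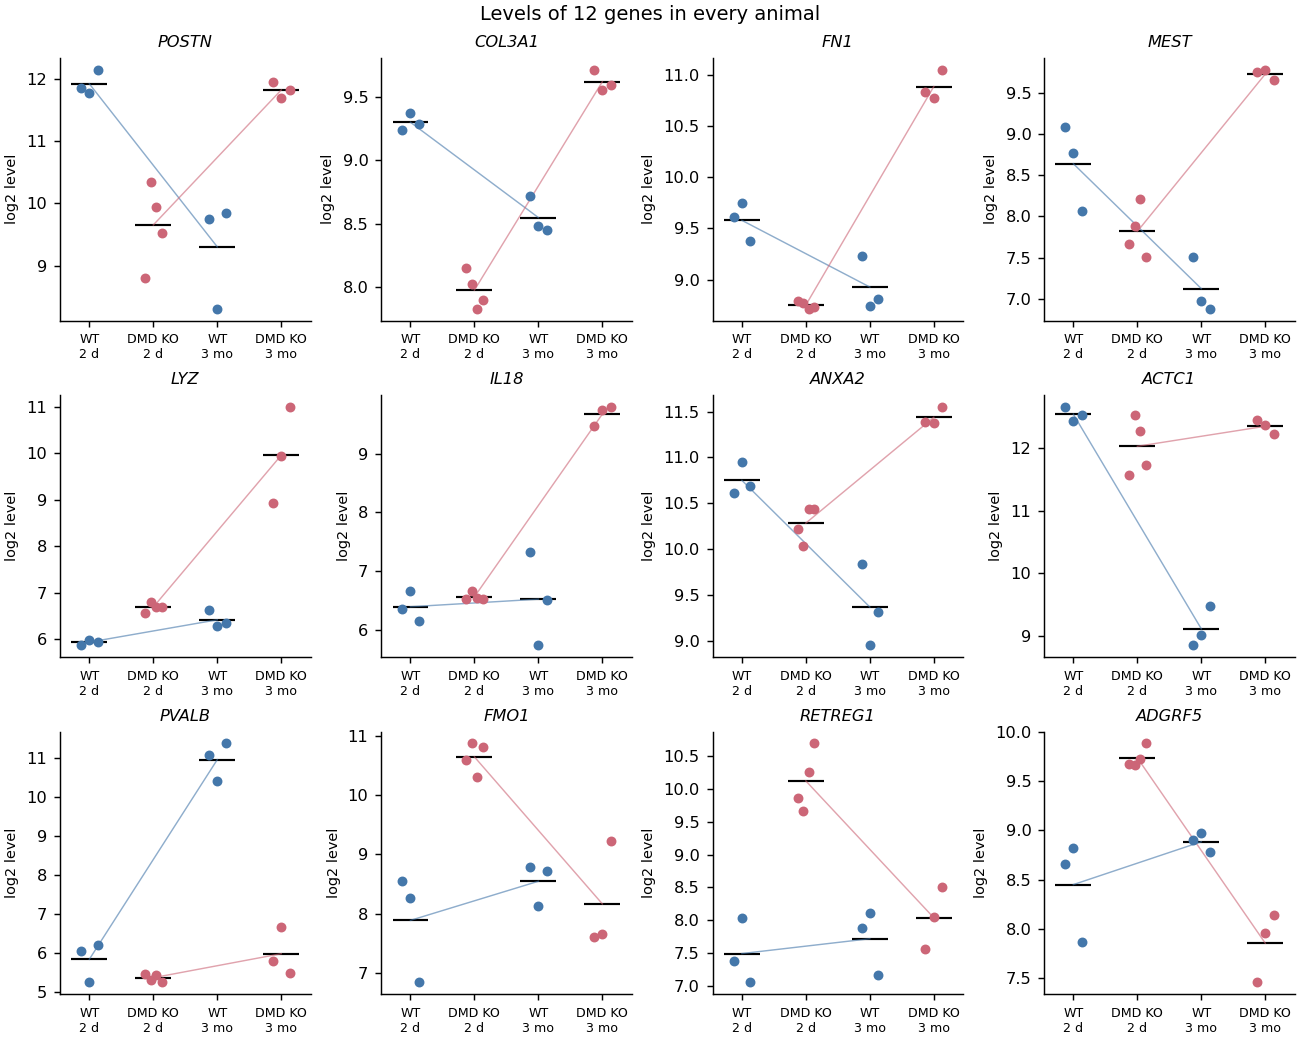
Each panel gives the log2 level of a gene (y axis) in every animal of the 4 groups (x axis), as points with the group mean as a bar, and thin lines joining the means of a genotype. The lines cross in the upper row, where POSTN, COL3A1, FN1 and MEST fell with age in WT and rose in DMD KO. LYZ, IL18 and ANXA2 are highest in 3-month DMD KO, PVALB is high in 3-month WT alone, and FMO1 and RETREG1 are highest in newborn DMD KO.

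Genes of matrix-producing cells and their secreted modulators showed fewer calls. Of 13 fibroblast and Wnt-modulator genes 4 were called higher and none lower, and the list's median interaction was 0.12. A negative value was found in 4 of the 13, down to -1.67, so the list did not move as 1. At 3 months 3 members were called higher and 2 lower in DMD KO, against 601 and 166 of all 10412 named genes. The called members were as follows. SFRP2, a secreted Wnt modulator, was at 8.71, 8.96 and 8.92 in DMD KO and 7.15, 7.03 and 6.82 in WT at 3 months. In newborns it was at 7.01, 6.96, 6.74 and 6.84 against 7.27, 7.24 and 7.21. Its interaction was 2.22 ± 0.15 (SE, adjusted p = 1.01e-05) and that of its other, dimmer probe set was 4.98 (adjusted p = 5.41e-07), so the direction was shared and the size was not. FAP, the fibroblast activation protein, had 2.15 ± 0.37 (SE, adjusted p = 0.00555), all of it from 3 months, where the difference was 2.09. THY1, a surface glycoprotein of fibroblasts, had 1.78 ± 0.24 (SE, adjusted p = 0.00104), from -1.26 at 2 days. CXCL14, a chemokine of connective tissue cells, had 2.12 ± 0.23 (SE, adjusted p = 0.000229).

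Several of the genes with the largest interactions or reversals lay outside the matrix lists. CTHRC1, a collagen triple helix repeat protein of injured tissue, was at 8.29, 8.09 and 8.70 in DMD KO at 3 months and between 5.54 and 6.75 in every other animal. Its interaction was 3.13 ± 0.23 (SE, adjusted p = 2.29e-05). LRRC17, a secreted leucine-rich repeat protein, went from -1.80 to 1.99 and C1QTNF3, a C1q-related secreted protein, from -1.28 to 1.38. SEMA3D, a secreted semaphorin, went from -1.34 to 0.98, ASPA, the aspartoacylase, from -1.88 to 1.60, and SNX7, a sorting nexin, from -0.997 to 0.996. All 5 were called at both ages with the sign reversed. Their interactions ran from 1.99 in SNX7 to 3.79 in LRRC17.

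Enzymes and chaperones that fold secreted proteins in the endoplasmic reticulum shared the direction. Of 20 measured, 7 were called higher and none lower, and the median went from -0.15 at 2 days to 0.52 at 3 months. Calreticulin (CALR) was called at both ages, with -0.58 and 0.81 and an interaction of 1.38 ± 0.21 (SE, adjusted p = 0.00203). HSPA5, the main chaperone of the reticulum, had 1.66 ± 0.32 (SE, adjusted p = 0.00958), with levels of 10.27, 10.99 and 10.91 in DMD KO against 10.11, 9.75 and 9.49 in WT at 3 months. PLOD2, which hydroxylates collagen lysines, had 1.79 ± 0.46 (SE, adjusted p = 0.0427), PDIA3 had 0.91 (adjusted p = 0.0433) and XBP1, a transcription factor of the unfolded protein response, had 0.99 (adjusted p = 0.0471). The calls of PLOD2 and PDIA3 were lost in 11 of the 13 fits that leave out a single animal and that of XBP1 in 10. The highest adjusted p among these was 0.105 for PLOD2 and PDIA3 and 0.118 for XBP1. PDIA3 was also lost under trend and robust settings (0.058) and XBP1 under median centring (0.0541). The list's count was 4 in 10 of those fits.

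Genes of matrix breakdown gave 3 calls of 18, all higher. PLAU, the urokinase plasminogen activator, was at 9.44, 10.19 and 9.42 in DMD KO and 7.71, 7.45 and 7.23 in WT at 3 months. All newborns lay between 7.28 and 7.77. Its interaction was 1.95 ± 0.26 (SE, adjusted p = 0.000951). MMP19 had 0.83 (adjusted p = 0.00356). MMP16 had 1.97 (adjusted p = 0.0312), a call lost in 8 of the 13 omissions, with adjusted p up to 0.0846. Of 25 genes of the TGF-beta, BMP and activin pathways, which drive matrix synthesis, only TGFBI, a TGF-beta-induced matrix protein, was called (0.66, adjusted p = 0.0354). That call was lost in 10 of the 13 omissions, with adjusted p up to 0.0932. Without WT replicate 1 at 3 months 2 members were called. Limma with array weights called 7 of the 25, all higher, and 1529 of all 10412 named genes. The filter on dim probe sets left 16 of the 25 genes and no call. Without these changes the share of calls, 4%, was near the background of 6.12%.

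Markers of macrophages made the clearest group whose difference appeared between the ages. Of 19 measured, 10 were called higher and none lower, and the median interaction was 0.95. All 10 were called at 3 months and none at 2 days, where the median difference over the list was 0.04. The mean log2 level of the 19 genes was 8.25, 8.45 and 8.85 in the 3-month knockouts and lay between 7.11 and 7.46 in the other 10 animals. The share of macrophages in the tissue was not measured, and its part in the other results was not tested.

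Lysozyme (LYZ), an antibacterial enzyme of phagocytes, was at 8.93, 9.95 and 11.001 in the 3-month knockouts and 6.63, 6.29 and 6.34 in WT of that age. Newborns were at 6.57, 6.81, 6.70 and 6.70 in DMD KO and 5.87, 5.996 and 5.95 in WT. Newborn knockouts also lay above newborn WT animals, but without a call (0.75, adjusted p = 0.162), and the interaction was 2.78 ± 0.48 (SE, adjusted p = 0.0057). The scavenger receptor MSR1 rose to 9.14, 8.83 and 10.19 in DMD KO, against 6.63, 6.21 and 6.02 in WT, with an interaction of 2.40 ± 0.37 (SE, adjusted p = 0.00274). VSIG4, a complement receptor of resident macrophages, was at 8.11, 8.78 and 9.60 against 6.42, 6.13 and 6.42, with 2.46 ± 0.37 (SE, adjusted p = 0.00198). The lysosomal protease LGMN had the firmest value of the list, 1.68 ± 0.16 (SE, adjusted p = 9.86e-05).

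Replicate 3 of the 3-month knockouts was the highest of its group in LYZ, MSR1, VSIG4, FCER1G and MRC1. MRC1, the mannose receptor, was at 8.47, 8.82 and 9.93 there, with an interaction of 2.15 ± 0.46 (SE, adjusted p = 0.017). FCER1G, a signalling chain of Fc receptors, had 1.76 ± 0.33 (SE, adjusted p = 0.00891). Between 8 and 10 members of the list stayed called whichever animal was left out. The filter on dim probe sets left 11 of the 19 genes and 6 calls. Several defining markers were not called: the receptor CSF1R had an interaction of 0.13 (adjusted p = 0.828) and AIF1 had 0.47 (adjusted p = 0.194). CD68 and CD163 were not analysed here.

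Complement genes, the soluble arm of innate defence, gave 4 calls of 15, all higher and all with a genotype difference called at 3 months only. Over the 15 genes, 3 were called higher in newborn knockouts and 10 at 3 months, against 845 and 601 of all 10412 named genes. CFI, a protease that cleaves C3b, was at 7.87, 7.995 and 7.99 in the 3-month knockouts and between 5.33 and 6.07 in all others. Its interaction was 1.99 ± 0.26 (SE, adjusted p = 0.000814). Clusterin (CLU) had 1.23 ± 0.26 (SE, adjusted p = 0.018). C1QB, a chain of C1q also counted among the macrophage markers, had 1.04 (adjusted p = 0.0253), a call lost in 7 of the 13 omissions with adjusted p up to 0.0636. SERPING1, the inhibitor of C1, had 0.76 (adjusted p = 0.0194), which became 0.0517 without DMD KO replicate 2 and 0.0532 without WT replicate 3, both at 3 months. Without either of these animals 2 members stayed called.

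Cytokines and chemokines gave 5 calls of 23, all higher. IL18, a cytokine of the inflammasome, was at 9.47, 9.75 and 9.80 in the 3-month knockouts, 7.33, 5.74 and 6.51 in WT of that age, 6.52, 6.67, 6.54 and 6.53 in newborn knockouts and 6.37, 6.67 and 6.16 in newborn WT. The level was thus raised in a single group, by 8.85-fold over WT, and the interaction was 2.98 ± 0.40 (SE, adjusted p = 0.00103). CCL2, which draws monocytes, came to its value from both ages: a newborn difference of -1.39 (adjusted p = 0.0307) and one of 1.31 in the older animals (adjusted p = 0.0677), with 2.70 ± 0.52 (SE, adjusted p = 0.0103). IL33, an alarmin of stromal cells, had 1.57 (adjusted p = 0.0277) and CCL21, which guides lymphocytes, had 0.57 (adjusted p = 0.0298). These last calls were lost in 8 and 6 of the 13 omissions, with adjusted p up to 0.0717 and 0.0696. The list's count fell to 3 without DMD KO replicate 1 or WT replicate 1 at 2 days, and without DMD KO replicate 3 at 3 months. The filter on dim probe sets left 9 of the 23 genes and 3 calls.

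No such difference was called by limma in markers of lymphocytes, neutrophils or red cells. Of 16 genes of T, NK and B cells, 5 of neutrophils and 7 of red cells none was called, and 1, 0 and 0 of them had an unadjusted p under 0.05, against 18.8% of all named genes. The filter on dim probe sets left 2, 1 and 0 of these genes, so most were dim, and a difference in them could be missed. Limma with trend and robust settings called none of them and with array weights 2, both lymphocyte genes. CD3G, a chain of the T cell receptor complex, had an interaction of 0.75 (adjusted p = 0.412). It became called without WT replicate 1 at 3 months (adjusted p = 0.019), and NKG7, a granule protein of cytotoxic cells, without DMD KO replicate 1 at 3 months (0.0148, against 0.0833 with it). HBB, the beta globin, had an interaction of -0.68 (adjusted p = 0.424).

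**Figure D3:**
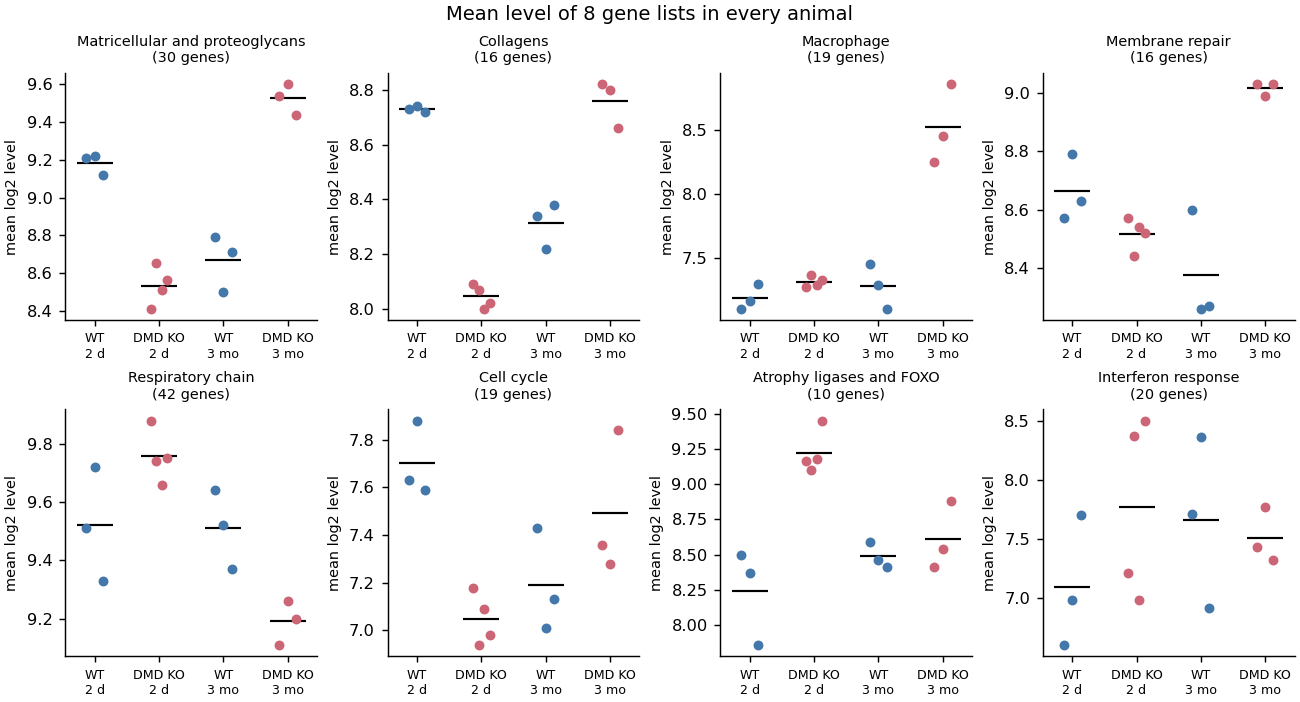
Each panel gives the mean log2 level of the measured genes of a list (y axis) in every animal of the 4 groups (x axis), with the group mean as a bar. The matrix lists are low in newborn DMD KO and high in 3-month DMD KO, the macrophage list is raised in 3-month DMD KO alone, the respiratory chain list is highest in newborn and lowest in 3-month DMD KO, and the interferon list scatters within each group.

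Genes of membrane repair, the annexins and their partners that seal torn fibres, gave 6 calls of 16, all higher, with a list median of 0.20. ANXA2 was at 11.39, 11.37 and 11.55 in the 3-month knockouts and 9.84, 8.95 and 9.31 in WT, and at 10.22, 10.04, 10.44 and 10.44 against 10.62, 10.95 and 10.69 in newborns. It fell with age in WT by 1.38 (adjusted p = 0.00251) and rose in DMD KO by 1.15 (adjusted p = 0.00139), with an interaction of 2.54 ± 0.26 (SE, adjusted p = 0.000183). ANXA1 reversed with both ages called, from -0.93 to 1.57, and S100A11, a calcium-binding partner of annexins, from -1.10 to 1.76 with an interaction of 2.85 ± 0.32 (SE, adjusted p = 0.000323). Myoferlin (MYOF) had 2.01 ± 0.23 (SE, adjusted p = 0.000387) and ANXA5 had 1.25 (adjusted p = 0.0184). ANXA4 had 1.21 (adjusted p = 0.0401), and that call was lost in 10 of the 13 omissions, with adjusted p up to 0.097. Annexins are made by stromal and immune cells as well as by fibres, and the cell type behind these values was not measured.

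Cardiac alpha-actin (ACTC1), the actin of the heart that fetal skeletal muscle also uses, differed with age in WT and not detectably in DMD KO. It was at 12.67, 12.45 and 12.53 in newborn WT and at 8.84, 9.01 and 9.47 in 3-month WT, a 10.9-fold fall (adjusted p = 1.65e-05). In DMD KO it was at 11.57, 12.54, 12.29 and 11.74 and then 12.46, 12.38 and 12.23 (change 0.32, adjusted p = 0.543). The interaction was 3.76 ± 0.31 (SE, adjusted p = 3.85e-05), and the gene's other probe set gave 2.72 (adjusted p = 0.000879). Actin genes are close in sequence, and how far the probe sets separate them was not tested.

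Of the 4 developmental isoforms measured, MYL4, the atrial and embryonic light chain, was also called (0.92, adjusted p = 0.0484), with levels of 7.48, 8.20 and 8.18 in the 3-month knockouts and 7.04, 6.92 and 6.83 in WT. That call was lost in 11 of the 13 omissions, with adjusted p up to 0.126, and under median centring (0.056). Among 7 genes of the synapse and denervation only NCAM1, an adhesion protein of regenerating and denervated fibres, was called. It was at 9.52, 9.74 and 9.80 against 8.39, 8.40 and 8.17 at 3 months, with an interaction of 1.17 ± 0.16 (SE, adjusted p = 0.00107). The 11 myogenic regulators gave a single call (9.09%), MEF2D (-0.62, adjusted p = 0.026). It was lost in 7 of the 13 omissions with adjusted p up to 0.0676. It was also lost under quantile normalization (adjusted p = 0.148) and trend and robust settings (0.0599).

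Parvalbumin (PVALB), the cytosolic calcium buffer of fast fibres, had the largest negative interaction, at -4.49 ± 0.43 (SE, adjusted p = 0.000117). Its level in WT was 6.05, 5.27 and 6.22 at 2 days and 11.07, 10.42 and 11.37 at 3 months, a 34.5-fold rise (adjusted p = 1.46e-05). In DMD KO it was 5.47, 5.33, 5.44 and 5.27 at 2 days and 5.80, 6.67 and 5.49 at 3 months. The change there was 0.61 (adjusted p = 0.306), and at 3 months the knockout level was 31.2-fold below WT. The newborn groups and the 3-month knockouts lay near or below the arrays' lower quartiles, 6.54 to 6.61 on the log2 scale.

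Among 17 genes of calcium handling, 2 were called higher and 4 lower. CASQ2, the calcium store protein of slow and cardiac muscle, moved against PVALB. It fell in WT from 10.80, 10.40 and 10.05 to 7.93, 7.73 and 7.01, and stayed at 11.28, 11.76, 11.30 and 10.96 and then 11.09, 11.02 and 10.96 in DMD KO. The knockouts stood above WT by 0.91 as newborns (adjusted p = 0.0302) and by 3.46 later (adjusted p = 9.87e-06), with an interaction of 2.56 ± 0.34 (SE, adjusted p = 0.00107). ATP2A1, the calcium pump of fast fibres, rose in WT and was 0.95 lower in DMD KO at 3 months, with -1.02 ± 0.20 (SE, adjusted p = 0.0117). HRC, a calcium-binding protein of the reticulum, had -1.04 (adjusted p = 0.00453). ASPH, whose locus also encodes the reticulum protein junctin, reversed from -0.70 to 0.52 (interaction 1.23, adjusted p = 0.00295). TMEM38A, a cation channel of the reticulum, had -1.01 (adjusted p = 0.0379), a call lost in 9 of the 13 omissions with adjusted p up to 0.0945.

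The contractile genes themselves gave few calls. None of 8 fast fibre genes was called, although 3 had an unadjusted p under 0.05. MYH1, the myosin of fast IIx fibres, came nearest, at 0.91 (adjusted p = 0.0532). It was lower in newborn knockouts by 0.91 (adjusted p = 0.00615) and at 3 months its difference was 0.00 (adjusted p = 0.997). Without WT replicate 3 at 2 days its adjusted p was 0.0183, and it was also called under quantile normalization (0.024), the filter on dim probe sets (0.0426) and array weights (0.000865). Of 10 slow fibre genes only MYL3, the slow light chain, was called (-2.07, adjusted p = 0.0308). That call was lost in 9 of the 13 omissions, with adjusted p up to 0.0738, and under array weights (0.0615). The list had a median difference of 1.11 at 2 days and 0.12 at 3 months, and without WT replicate 3 at 3 months 4 members were called lower.

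Of 22 other sarcomere genes 3 were called lower. CAPN3, the muscle calpain, had -1.62 ± 0.28 (SE, adjusted p = 0.00543), with 10.45, 10.12, 9.98 and 10.62 in newborn knockouts against 9.33, 8.93 and 8.46, and overlap at 3 months. TCAP, the titin cap, had -0.96 (adjusted p = 0.0276) and MYOZ1, a Z-disc protein, had -1.09 (adjusted p = 0.0408). These calls were lost in 4 and 11 of the 13 omissions, with adjusted p up to 0.0714 and 0.0918. MYOZ1 was also lost under trend and robust settings (0.0546), quantile normalization (0.0512) and array weights (0.0725), and TCAP under array weights (0.0533). The count of this list was 1 without DMD KO replicate 1 or 4 at 2 days or WT replicate 1 or 2 at 3 months, and 6 without WT replicate 1 at 2 days. Quantile normalization called 1 member higher and 2 lower. Array weights called 3 higher and 1 lower, with a list median of -0.13 against -0.46, so the direction of the calls depended on the setting.

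The dystrophin complex held a single call among 9 measured genes (11.1%, against 6.12% of all named genes). Sarcospan (SSPN), a membrane protein of the complex, had -1.21 ± 0.24 (SE, adjusted p = 0.013) and stood at 9.80, 9.98, 9.57 and 9.64 against 9.48, 9.10 and 8.82 in newborns. At 3 months it was at 8.39, 8.66 and 8.09 against 9.08, 8.84 and 9.00, so the groups were apart at both ages in opposite order. The level of DMD itself was 12.08, 12.30, 12.11 and 12.21 in newborn knockouts against 12.38, 12.29 and 11.53, and 11.84, 11.65 and 11.53 against 11.87, 11.81 and 12.01 at 3 months. The genotypes overlapped at both ages, and the interaction was -0.33 (adjusted p = 0.636). Where its probe sets lie relative to exon 52 could not be read from the sources used here, so these values check nothing about the deletion. Utrophin (UTRN), the paralogue of dystrophin, had 0.36 with a 95% interval from -0.20 to 0.93 (adjusted p = 0.601). Without WT replicate 1 at 2 days the list had 2 calls lower, and without WT replicate 3 at 2 days it had 2 higher and 2 lower.

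**Figure D4:**
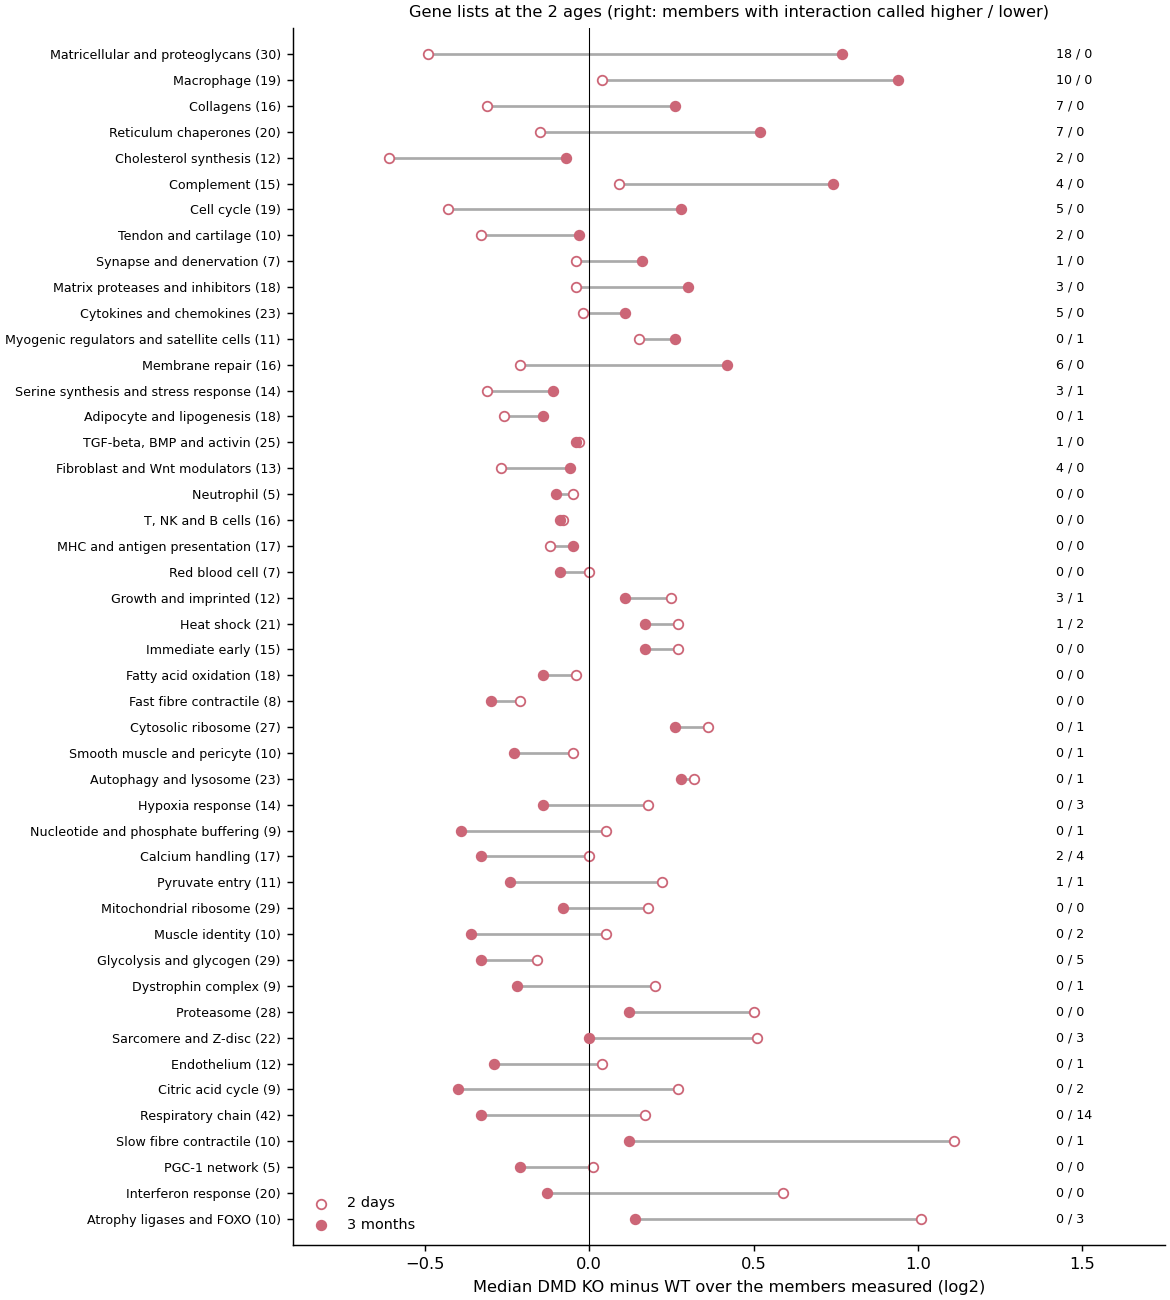
Each row is a gene list with its number of measured genes, and the open and filled points give the median DMD KO minus WT difference over the members at 2 days and 3 months (x axis, log2), with the members called higher and lower in the interaction at the right. Matrix, cell cycle and reticulum lists moved from the left of 0 to its right, and the respiratory chain, citric acid cycle and endothelium lists from right to left. All 46 lists with at least 5 measured genes are drawn.

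Genes of the respiratory chain moved down between the ages in the knockouts. Of 42 measured subunits 14 were called lower in the interaction and none higher, and 40 had a negative value. The median difference went from 0.17 at 2 days to -0.33 at 3 months. The age change was called as a fall in 27 of the 42 in DMD KO and in 2 in WT, and the median change was -0.58 and -0.01. Over all 10412 named genes a fall was called for 430 in DMD KO and for 143 in WT. No member's interaction went beyond -1.37.

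NDUFB6, a subunit of complex I, was at 9.58, 9.29, 9.23 and 9.36 in newborn knockouts and 8.71, 9.36 and 8.51 in newborn WT animals. At 3 months it was at 8.56, 8.52 and 8.63 against 9.52, 9.21 and 9.22. The newborn groups overlapped and the older ones did not, and the interaction was -1.26 ± 0.25 (SE, adjusted p = 0.0117). ATP5H, a subunit of the ATP synthase, had -1.22 ± 0.18 (SE, adjusted p = 0.00171), from 0.77 at 2 days, the age at which it was called. NDUFB2 had -1.10 (adjusted p = 0.00543). The calls of COX7C (-0.87), NDUFB3 (-1.04) and NDUFB5 (-1.25) had adjusted p of 0.0304, 0.0473 and 0.0338 and were lost in 8, 11 and 9 of the 13 omissions, with adjusted p up to 0.0768, 0.113 and 0.0802. The list's count was 8 or 9 without DMD KO replicate 1 or 2 at 2 days, DMD KO replicate 1 or 2 at 3 months, or WT replicate 1 at 3 months. Under no omission was a member called higher. Trend and robust settings left 8 calls, without COX7C (0.0543) and NDUFB3 (0.0595).

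All 9 measured genes of the citric acid cycle had a negative interaction and 2 were called. IDH3B, a subunit of isocitrate dehydrogenase, had -1.26 ± 0.22 (SE, adjusted p = 0.00587), with 8.27, 8.27 and 8.24 against 8.98, 8.71 and 8.76 at 3 months. SUCLG1, of succinyl-CoA synthetase, had -0.75 (adjusted p = 0.0114). CKMT2, the mitochondrial creatine kinase that exports phosphate energy, was the single call among 9 genes of nucleotide and phosphate buffering (11.1%). It was at 8.26, 8.54 and 7.91 in the 3-month knockouts against 9.64, 9.62 and 9.32, a 2.44-fold lower level, with -1.78 ± 0.27 (SE, adjusted p = 0.00227). The 18 genes of fatty acid oxidation, the 29 of the mitochondrial ribosome and the 5 of the PGC-1 network had no call by limma, with 3, 5 and 2 members at an unadjusted p under 0.05, against 18.8% over all named genes. Trend and robust settings called 1 fatty acid oxidation gene lower. Array weights called 4 of that list higher and 1 lower, 4 mitochondrial ribosome genes lower and 1 of the PGC-1 network lower. PPARA, a receptor that drives fatty acid oxidation, had -0.89 (adjusted p = 0.0552), which became 0.0178 without DMD KO replicate 3 at 2 days, 0.0496 under trend and robust settings, 0.0471 under quantile normalization and 0.0111 with array weights.

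Glucose genes gave 5 calls of 29, all lower. PFKFB1, a regulator of glycolysis, was at 7.67, 8.04 and 7.71 in the 3-month knockouts against 9.67, 9.19 and 9.74. It rose with age in WT by 1.63 (adjusted p = 0.00539) and differed by -0.65 in DMD KO (adjusted p = 0.154), with an interaction of -2.27 ± 0.36 (SE, adjusted p = 0.00302). GYG1, the primer of glycogen, had -0.91 (adjusted p = 0.00993) and SLC2A4, the insulin-responsive glucose transporter, had -0.73 (adjusted p = 0.00853). PHKA1, a subunit of phosphorylase kinase, had -1.76 (adjusted p = 0.0457) and GYS1, the muscle glycogen synthase, -0.88 (adjusted p = 0.046), lost in 11 and 9 of the 13 omissions with adjusted p up to 0.112 and 0.108. GYS1 was also lost under trend and robust settings (0.063), quantile normalization (0.0655) and array weights (0.094). The count was 3 without DMD KO replicate 1 or 2 at 2 days, DMD KO replicate 1 at 3 months, or WT replicate 1 or 3 at 3 months.

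PDK4, the kinase that closes pyruvate dehydrogenase and spares glucose, had a large but scattered value. It fell in WT from 12.24, 11.21 and 10.52 to 7.18, 7.79 and 6.08, and read 11.05, 11.94, 11.99 and 12.28 and then 9.93, 10.01 and 12.10 in DMD KO. The older groups were far apart (12.6-fold, adjusted p = 0.00322) and the newborn groups overlapped, with an interaction of 3.17 ± 0.83 (SE, adjusted p = 0.048). The call was lost in 10 of the 13 omissions, with adjusted p up to 0.118, and under median centring (0.0532). DLD, a subunit of the pyruvate dehydrogenase complex, had -0.78 (adjusted p = 0.0376), lost in 9 of the 13 omissions with adjusted p up to 0.083, and under trend and robust settings (0.057). Without WT replicate 2 at 2 days 3 of these 11 pyruvate genes were called lower, and without WT replicate 3 at 2 days 2 were called higher.

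**Figure D5:**
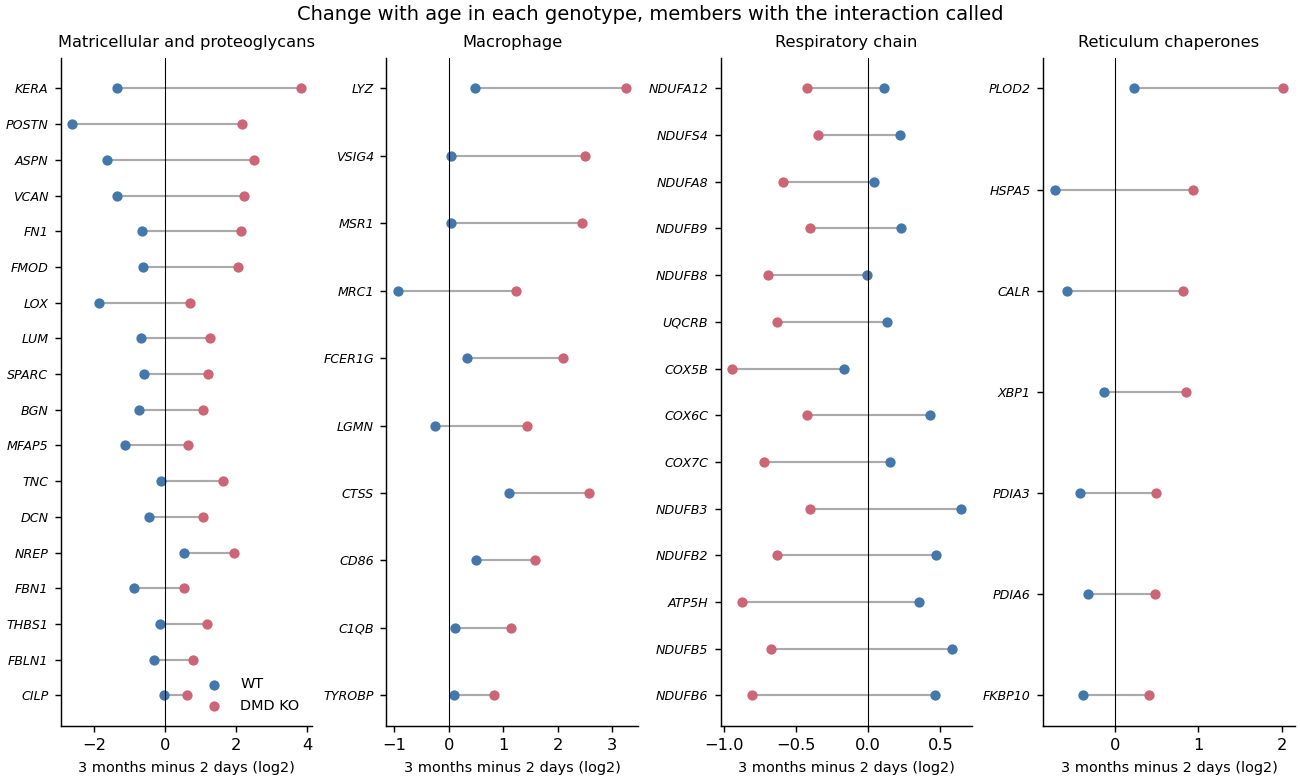
Each row is a called member of a list, and the blue and red points give its change from 2 days to 3 months (x axis, log2) in WT and in DMD KO. All 18 matricellular genes lie to the right of 0 in DMD KO, no macrophage gene had a called change in WT, and the respiratory chain points of DMD KO lie to the left of 0.

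A further set of genes was displaced in newborn knockouts and close to WT at 3 months. FMO1, a flavin-containing monooxygenase, was at 10.60, 10.87, 10.31 and 10.80 in newborn knockouts and 8.56, 8.26 and 6.84 in newborn WT, a 6.78-fold difference (adjusted p = 0.00237). At 3 months it was at 7.61, 7.65 and 9.23 against 8.78, 8.13 and 8.72. Those groups overlapped, and the interaction was -3.14 ± 0.63 (SE, adjusted p = 0.0119). RETREG1, a receptor for autophagy of the reticulum and the only call among 23 genes of autophagy and lysosome (4.35%), was 6.15-fold higher in newborn knockouts. It was at 9.86, 9.66, 10.26 and 10.69 against 7.38, 8.04 and 7.07, and at 7.57, 8.05 and 8.51 against 7.88, 8.11 and 7.17 at 3 months, with -2.30 ± 0.46 (SE, adjusted p = 0.012).

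FBXO32, the muscle ubiquitin ligase atrogin-1, had the largest newborn difference of the atrophy genes. It was at 9.75, 9.80, 10.58 and 10.998 in newborn knockouts and 7.36, 6.84 and 6.64 in WT, 10.1-fold higher (adjusted p = 0.000562). At 3 months the levels were 7.93, 8.20 and 9.62 against 7.57, 7.42 and 7.17, still apart but not called (1.19, adjusted p = 0.13). The interaction of -2.15 ± 0.57 (SE, adjusted p = 0.0489) lay at the threshold, and was lost in 10 of the 13 omissions, with adjusted p up to 0.125, and under median centring (0.0537). Of 10 atrophy and FOXO genes 3 were called lower. FBXO40, another muscle F-box protein, came to its -1.44 ± 0.25 (SE, adjusted p = 0.0057) by another route, rising in WT by 2.05 with age while DMD KO changed by 0.60 (adjusted p = 0.0505). ZFAND5 had -0.88 (adjusted p = 0.0444), lost in 10 of the 13 omissions with adjusted p up to 0.104, and under trend and robust settings (0.0656) and quantile normalization (0.0603). With these losses the count of the list was 1 without DMD KO replicate 2, 3 or 4 or WT replicate 3 at 2 days, and without DMD KO replicate 1 or 2 or WT replicate 1 or 2 at 3 months.

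The 28 proteasome genes had no call by limma, though 13 had an unadjusted p under 0.05 (18.8% over all named genes) and 25 had a negative value. PSME4, a proteasome activator, had -1.63 (adjusted p = 0.0931), which became 0.0487 without WT replicate 1 at 2 days and 0.047 without DMD KO replicate 3 at 3 months. Without DMD KO replicate 2 or WT replicate 1 at 2 days 2 members were called, and without DMD KO replicate 3 at 3 months 1 was. Array weights called 2 of the 28 higher and 4 lower, with PSME4 lower (0.0314). Of 21 heat shock genes, HSF2 and DNAJB5 were called lower and HSPB6 higher. HSF2, a heat shock transcription factor, was at 9.56, 9.88, 9.87 and 9.92 in newborn knockouts against 8.25, 8.17 and 6.84, with -1.73 ± 0.41 (SE, adjusted p = 0.0295). That call was lost in 8 of the 13 omissions, with adjusted p up to 0.0807. DNAJB5, a co-chaperone, reversed with both ages called, from 0.84 to -0.85 (interaction -1.69, adjusted p = 0.0023). HSPB6, a small heat shock protein, had 0.73 (adjusted p = 0.0168), a call lost under quantile normalization (0.0535).

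Of 19 cell cycle genes 10 were called lower and 1 higher in newborn knockouts, against 343 lower and 845 higher of all 10412 named genes. All 19 measured genes had a positive interaction, 5 of them called, and the median difference went from -0.43 to 0.28. TOP2A, the topoisomerase of dividing cells, was at 7.74, 7.28, 7.68 and 7.59 in newborn knockouts against 9.32, 9.998 and 8.75. At 3 months it was at 8.55, 8.46 and 9.68 against 8.74, 7.58 and 8.12, with overlap. The interaction was 2.53 ± 0.51 (SE, adjusted p = 0.0127). PCLAF, a partner of the replication clamp, had 3.54 (adjusted p = 0.0286) and the mitotic kinesins KIF11, KIF23 and KIF20A had 2.46, 1.58 and 0.75 (adjusted p = 0.0229, 0.0404 and 0.0192). PCLAF and KIF23 were lost in 7 and 8 of the 13 omissions, with adjusted p up to 0.0618 and 0.0972. KIF11 was lost without DMD KO replicate 4 at 2 days (0.0502) and without WT replicates 2 (0.0613) or 3 (0.0609) at 3 months, and KIF20A without WT replicate 2 at 3 months (0.0527). The count of the list ranged from 1, without WT replicate 2 at 3 months, to 7. The filter on dim probe sets left 10 of the 19 genes and 1 call.

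Of 12 cholesterol synthesis genes 2 were called higher and all had a positive interaction; quantile normalization called 4. MSMO1, a sterol oxidase, was at 7.02, 7.09, 6.95 and 7.25 in newborn knockouts against 8.80, 9.72 and 8.51, and differed by 0.10 at 3 months (adjusted p = 0.84), with 2.04 ± 0.35 (SE, adjusted p = 0.00554). The other call, HSD17B7, had no called difference at either age and an interaction of 1.27 (adjusted p = 0.0463), lost in 9 of the 13 omissions with adjusted p up to 0.114. Of 14 genes of serine synthesis and the stress response 3 were called higher and 1 lower, with a median of 0.19 and 5 negative values. PSAT1, of serine synthesis, was called lower in newborn knockouts, at 5.86, 5.96, 5.86 and 6.12 against 7.80, 8.59 and 7.88. The older groups differed by -0.07 (adjusted p = 0.898), with 2.07 ± 0.40 (SE, adjusted p = 0.0104). ALDH1L2, of mitochondrial folate metabolism, had 1.60 (adjusted p = 0.00107). ASNS, the asparagine synthetase, had 1.53 (adjusted p = 0.0449), lost in 11 of the 13 omissions with adjusted p up to 0.102, and under quantile normalization (0.0599) and median centring (0.0555).

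ATF4, the transcription factor of the amino acid response, which is known to act on PSAT1 and ASNS, went the other way. It was at 8.99, 9.28, 9.23 and 9.60 in newborn knockouts against 8.79, 8.79 and 8.47, and at 9.38, 9.38 and 9.40 against 10.43, 10.44 and 10.32 at 3 months. Both differences were called, 0.59 and -1.01, and the interaction was -1.60 ± 0.19 (SE, adjusted p = 0.000444). It rose with age in WT by 1.71 (adjusted p = 5.77e-05) and changed by 0.11 in DMD KO (adjusted p = 0.812).

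Growth factors and imprinted genes, many of which are switched down after birth, gave 3 calls higher and 1 lower among 12. IGF1, the main growth factor of postnatal muscle, was at 7.23, 7.41, 7.08 and 7.45 in newborn knockouts against 7.97, 9.63 and 8.93. At 3 months it was at 9.08, 9.42 and 9.95 against 9.04, 8.27 and 8.47, with 2.44 ± 0.47 (SE, adjusted p = 0.0104). MEST, a paternally expressed gene, reversed with both ages called. It was at 7.66, 7.89, 8.21 and 7.51 against 9.08, 8.77 and 8.07 in newborns, where the groups overlapped, and at 9.76, 9.78 and 9.65 against 7.51, 6.98 and 6.88 at 3 months. Its interaction was 3.43 ± 0.34 (SE, adjusted p = 0.00014). NNAT had 1.23 (adjusted p = 0.0111), and DLK1, a Notch ligand relative, had -0.88 (adjusted p = 0.0183) from a newborn excess of 0.62. Without DMD KO replicate 2 or WT replicate 1 at 2 days, or DMD KO replicate 1 or 3 at 3 months, 2 members were called lower.

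A smaller set reversed from higher to lower. ADGRF5, an adhesion receptor of endothelium and epithelium, was at 9.67, 9.67, 9.73 and 9.89 in newborn knockouts against 8.66, 8.82 and 7.87, and at 7.46, 7.96 and 8.14 against 8.90, 8.98 and 8.78 at 3 months. The interaction was -2.32 ± 0.30 (SE, adjusted p = 0.000911), with both ages called. FMO2, a relative of FMO1, went from 1.12 to -1.47 (interaction -2.59 ± 0.28, adjusted p = 0.0003), MYCT1 from 0.67 to -1.24 and ASB15, a subunit of ubiquitin ligases, from 0.82 to -1.17, with both ages called in each. Unlike FMO1, FMO2 also rose with age in WT, by 1.36 (adjusted p = 0.00417).

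Of 12 endothelial markers only FLT1, a VEGF receptor, was called (8.33%, against 6.12% of all named genes). It went from 0.44 to -0.57 with both ages called, with 8.25, 8.16, 7.84 and 8.03 against 7.59, 7.69 and 7.61 in newborns and 6.995, 7.09 and 6.97 against 7.71, 7.58 and 7.50 at 3 months (interaction -1.01 ± 0.15, adjusted p = 0.0019). The mean level of the list was 7.57, 7.57 and 7.31 in the 3-month knockouts and 7.87, 7.94 and 7.50 in WT, which overlapped. RGS5, a pericyte marker and the only call among 10 smooth muscle and pericyte genes (10%), had -0.99 (adjusted p = 0.0179). The count of endothelial calls was 2 without WT replicate 2 at 2 days, and that of the smooth muscle list 2 without WT replicate 3 at 3 months.

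Of 14 hypoxia genes 3 were called lower. HIF1AN, an inhibitor of hypoxia-inducible factors, reversed from 0.48 to -0.54 with both ages called (interaction -1.01, adjusted p = 0.00134). EGLN3, an oxygen-sensing prolyl hydroxylase, had -1.43 (adjusted p = 0.0222), which became 0.0571 without DMD KO replicate 3 and 0.0551 without WT replicate 2 at 3 months, where 1 member of the list stayed called. EPAS1, a hypoxia-inducible factor, had -0.52 (adjusted p = 0.0461), lost in 11 of the 13 omissions with adjusted p up to 0.104. LPIN1 was the only call among 18 adipocyte and lipid synthesis genes (5.56%). It had -0.67 (adjusted p = 0.0284), lost in 6 of the 13 omissions with adjusted p up to 0.0677. Without WT replicate 1 at 2 days 2 members of that list were called higher.

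Among the other genes with the largest negative interactions, TEX9 rose in WT from 7.32, 7.80 and 6.24 to 10.34, 9.60 and 8.93 and stayed between 7.63 and 8.60 in all knockouts (interaction -2.99, adjusted p = 0.00545). WWP1, a ubiquitin ligase, rose in WT by 2.63 (adjusted p = 0.0013) and differed with age by 0.67 in DMD KO (adjusted p = 0.268), with -1.96 (adjusted p = 0.0233). That call was lost in 5 of the 13 omissions, with adjusted p up to 0.0601. RORA, a nuclear receptor, had -2.09 (adjusted p = 0.00958) and ALPK2, a kinase of the alpha class, -2.19 (adjusted p = 0.00531), both called at 2 days only. ABRA, an actin-binding protein of muscle, had -2.14 (adjusted p = 0.0308), SLC12A2, an ion cotransporter, had -1.95 (adjusted p = 0.0433) and CCDC160 had -2.001 (adjusted p = 0.0427). These were lost in 7, 10 and 10 of the 13 omissions, with adjusted p up to 0.0781, 0.113 and 0.109. ABRA was also lost under array weights (0.094). SLC7A8, an amino acid transporter, had -2.03 (adjusted p = 0.0139) without a loss.

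Genes of the interferon response had a negative list median without a call. None of 20 was called by limma and 2 had an unadjusted p under 0.05, against 18.8% of all named genes. A negative value was found in 19, and the median was -0.73. CXCL10, a chemokine induced by interferon, had the largest value, -2.54 ± 1.49 (SE, adjusted p = 0.481). Its levels were 5.37, 8.30, 5.41 and 9.09 in newborn knockouts and 8.19, 9.82 and 5.66 in 3-month WT. Animals of the same group thus lay far apart. Leaving out single animals moved the median of the list between -1.22 and -0.35. The 17 genes of antigen presentation, the 15 immediate early genes and the 4 of Schwann cells had no call either. Of these, 2, 1 and 1 had an unadjusted p under 0.05, to be read against the same 18.8%. Array weights called SLA-DQB1, of antigen presentation, higher (0.0243) and CDH19, of Schwann cells, lower (0.0234). They called none of the interferon or immediate early genes. EGR2, an immediate early gene, was at 8.25, 10.28 and 8.26 in the 3-month knockouts, and its 1.25 had an adjusted p of 0.281. Of 27 ribosomal protein genes RPS16 alone (3.7%) was called (-0.58, adjusted p = 0.037), and its other probe set gave 0.02. The call was lost in 9 of the 13 omissions, with adjusted p up to 0.0954, and under trend and robust settings (0.0631).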

How the data were processed

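RNA of biceps femoris was extracted with Trizol, labelled with biotin and hybridised to Affymetrix whole-transcript arrays, per the labels' protocols. Per the submitters' processing notes, the deposited values come from Affymetrix Power Tools. Version, summary method and normalization: not given in the sources used here. Values deposited by the authors run from 2.81 to 13.8 and were read as log2 levels, the base being inferred from their range. They were used with no filter and no further scaling.

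Of 21893 probe sets 11171 carried 1 gene symbol (a symbol repeated for the same probe set counted as 1), 275 several and 10447 none. Names came from the platform annotation; 10825 were looked up by gene number and 5 updated. A gene was represented by its brightest probe set over the 13 arrays, which gave 10412 genes, 708 of them with several probe sets. The values of 485 probe sets repeat those of another.

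All 13 arrays were fitted with limma 3.58.1 in R 4.3.3, with 1 mean per group and 9 residual degrees of freedom, and two-sided tests. The script was tested on simulated data. The members, the 48 gene lists and the rule for named genes were chosen with earlier results of these data known. That rule took the 20 largest called interactions in each direction, the 12 reversals called at both ages with the largest smaller genotype difference, up to 6 called members of each list in each direction (or up to 2 members of a list without a call), DMD and UTRN. Alternatives were trend and robust settings, quantile normalization, median centring, a filter on dim probe sets, array weights, the mean of a gene's probe sets, other thresholds, a replicate block and leaving out each animal in turn.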

Additional observations from a re-analysis of the deposited data

Results flagged for a closer look

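The 1105 probe sets and 637 named genes called in the interaction are themselves cases in which the genotype difference differed between the ages, by the test of that difference. Among reversals with both ages called, the 12 with the largest value of the smaller of the 2 genotype differences were POSTN (interaction 4.79), ASPN (4.13), LRRC17 (3.79), VCAN (3.55), ASPA (3.48), S100A11 (2.85), C1QTNF3 (2.65), COL3A1 (2.39), SEMA3D (2.32) and SNX7 (1.99), from lower to higher in DMD KO, and FMO2 (-2.59) and ADGRF5 (-2.32), from higher to lower.

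In 4 genes 1 of the 4 newborn knockouts lay far from the other 3. The gap to the nearest animal, as a share of the group's range, was 0.867 in HSF2, 0.850 in IL18, 0.830 in MYOZ1 and 0.904 in NDUFB3, above Dixon's critical value at the 95% level for 4 animals. Chance alone gives such a gap in about 1 in 20 groups. In IL18 the whole range was small, from 6.52 to 6.67.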

How the results depend on the processing

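Most changes of setting left the count of 1105 probe sets within 1.5 times: trend and robust settings gave 1082, quantile normalization 1267, median centring 1068, the filter on dim probe sets 832, and single omissions 789 to 1265 (459 to 741 named genes against 637). Array weights gave 2760 probe sets and 1529 genes, though the weights stopped short of convergence. An adjusted p under 0.01 gave 446 probe sets. With the replicate number as a block, 580 probe sets and 353 genes were called. Nothing in the labels pairs animals by number, and deviations from the group means correlated between -0.495 and 0.33 for the same number and between -0.656 and 0.657 for different ones, so this replicate block result is given here alone. Under it the macrophage list kept 4 calls, the respiratory chain 5, the cell cycle 0 and the reticulum list 1. Of 128 called genes named by the rule, 77 stayed called under every setting and none turned its sign. BTG2, not called, turned to 0.14 under array weights (adjusted p 0.91). Without WT replicate 2 at 2 days 50.9% of calls were higher and without WT replicate 1 at 3 months 70%, against 60.5%. Scaling moved that share to 59.3% or 58.1%. For 24 of the 128, the filter on dim probe sets gave no value. The dimmest genes are the least certain: 21 called genes lay below the lower quartile of every array in all group means.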

Other observations

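The genes described here were chosen after their values were seen and lie in none of the lists. ANLN, of the cleavage furrow, had an interaction of 2.50 (adjusted p = 0.0161), the kinetochore proteins NDC80 and NUF2 had 2.38 and 2.20 (adjusted p = 0.0266 and 0.0405), and KIF15, a spindle kinesin, had 2.16 (adjusted p = 0.00432). Each was called lower in newborn knockouts and at 3 months had no called difference from WT. CTSH, LIPA and PPT1 had no called difference in newborns and were called higher in DMD KO at 3 months. The list of 23 autophagy and lysosome genes held no interaction called higher, and its median interaction was -0.16. Members of that list were called above WT at both ages, 9 at 2 days and 7 at 3 months, and none below. Of all 10412 named genes, 845 and 601 were called above WT. CTSH, a cathepsin, differed by 2.27 at 3 months (interaction 2.32, adjusted p = 0.000853), LIPA, the acid lipase, by 2.10 (interaction 2.05, adjusted p = 0.00447) and PPT1, a palmitoyl thioesterase, by 1.57 (interaction 2.16, adjusted p = 0.00116). PRG4, the lubricin of joint and tendon surfaces, stood above WT by 1.09 in newborn knockouts and by 3.21 in older ones, both called. ALDH6A1, DBT and BCKDHB, which act in branched-chain amino acid breakdown, were called higher in newborn knockouts and not called at 3 months. ALDH6A1 had a newborn difference of 1.49 (interaction -1.75, adjusted p = 0.00497), DBT of 1.13 (interaction -1.41, adjusted p = 0.00762) and BCKDHB of 0.93 (interaction -1.43, adjusted p = 0.00433).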
